A study of Mus musculus with 21 samples.

Results

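The cytochrome P450 genes of the mouse were followed through 21 mRNA-seq libraries of kidney podocyte fractions. A gene was taken when its symbol, looked up from the Entrez Gene number, was Cyp followed directly by a digit, when it was not a pseudogene by symbol, and when its counts summed to 10 or more over all libraries. Of 27179 genes listed, 104 had a P450 symbol, 4 of these were pseudogenes by symbol, 30 stayed below 10 counts and 70 were kept. The 30 included 15 with no count at all, among them *Cyp11b1* and *Cyp19a1*, the enzymes of corticosterone and oestrogen synthesis, and *Cyp7a1*, the first enzyme of bile acid synthesis. Of the 70 genes, 54 had enough counts for testing, and the other 16 held only 10 to 124 counts over all 21 libraries. Among these 16 was *Cyp2d13*, a transcribed pseudogene by its RefSeq biotype that the symbol rule kept.

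All mice were wildtype male C57BL/6J. The 6 young mice were 4 months old and untreated. The 7 saline mice and the 8 MCC950 mice were 19.5 months old. From the age of 18 months they had received injections for 6 weeks, of saline alone or of MCC950, a small-molecule inhibitor of the NLRP3 inflammasome, at 10 mg/kg in saline. Each library came from 1 mouse, and the fraction was drawn from digested cortex with magnetic beads and antibodies to nephrin, a podocyte surface protein. The labels call the young mice untreated, so age and injection cannot be told apart in the comparison of saline with young. The methods take control mice from a tissue archive, but the number of young controls they give differs from the number of young libraries, so whether these are the same mice is not certain.

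Cytochrome P450 enzymes are haem proteins that insert an oxygen atom into a substrate, with electrons delivered by P450 reductase in the endoplasmic reticulum or by ferredoxins in mitochondria. Families 1 to 3 mostly oxidise foreign compounds and, in part, arachidonic acid, and family 4 hydroxylates the ends of fatty acids. The other families mostly make or break down sterols, steroids, bile acids, vitamin D and retinoic acid. In the kidney, most P450 mRNA is known from the proximal tubule, where arachidonic acid is turned into epoxides and hydroxylated fatty acids that act on salt transport and vascular tone, and where vitamin D is activated.

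Library sizes were 27375870 to 36827823 counts in young, 45772937 to 84876399 in saline and 35440472 to 58247271 in MCC950 mice, of which mitochondrial genes took 51.5 to 80.4%, 63.0 to 79.2% and 49.9 to 63.7%. Levels are given as CPM, counts relative to a library size scaled by the trimmed mean of M values (TMM). The 15 podocyte markers were all present, at summed levels with medians of 1559 CPM in young, 592.6 CPM in saline and 621.3 CPM in MCC950 libraries. The 14 proximal tubule markers were all present too and summed to more, with 2004 to 8441 CPM in young, 2251 to 5406 CPM in saline and 3271 to 9801 CPM in MCC950 libraries. In bulk RNA, fewer cells of a type and less RNA per cell cannot be told apart. Hepatocyte markers were at the floor for *Ahsg*, which had no count, and summed to at most 22.3 CPM. The adrenal markers summed to at most 4.28 CPM. Of these *Nr5a1* had at most 3 counts in any library. *Star* was at means of 2.59, 2.42 and 2.08 CPM in young, saline and MCC950 libraries, and *Akr1b7* at 1.02, 0.493 and 0.341 CPM. Among the saline libraries, saline 5 stood apart for several P450 genes, and many values below are also given without it.

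Members lie in clusters of close copies, which limits what a short read can tell. By GRCm38.p6 there were 14 members on chromosome 4 (*Cyp4a*, *Cyp4b1*, *Cyp4x1* and *Cyp2j*), 11 on chromosome 19 (mostly *Cyp2c*), 10 on chromosome 7 (mostly *Cyp2a*, *Cyp2b* and relatives), 9 on chromosome 15 (all *Cyp2d*) and 9 on chromosome 17 (mostly *Cyp4f*). Over 119 pairs of one subfamily, 12 pairs had coding sequences at least 95% identical, and they involved 13 members. The closest pairs by subfamily were *Cyp4a12a* with *Cyp4a12b* at 98.5%, *Cyp2a4* with *Cyp2a5* at 98.4% and *Cyp2c40* with *Cyp2c68* at 98.1%. *Cyp4a10* was 97.2% identical to *Cyp4a32*. How reads with several matches were counted was not given in the sources used here, so values of these genes are uncertain as to which copy the reads came from. *Cyp2d12* was 92.1% identical to its nearest relative among the members, *Cyp2d9*, and *Cyp2d22*, *Cyp7b1*, *Cyp51*, *Cyp39a1* and *Cyp1a1* were in none of the 12 pairs.

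The 250 bases before the RefSeq start site are printed below for *Cyp2a4* and *Cyp2a5*. The mRNAs of this near-identical pair were both higher than in young mice after MCC950. The same stretch is printed for *Cyp51*, a sterol gene called higher with MCC950, and for *Cyp1a1*, called lower with age near the threshold. RefSeq entries on GRCm38.p6 were matched for 53 of the 70 members. Capitals mark the letters TATAAA (a core promoter element), GTTAAT (half-site of the factor HNF1), CCAAT (the box bound by the factor NF-Y), GCGTG (core of the aryl hydrocarbon receptor site) and ATCACCTCA (a sterol regulatory element), searched on both strands together with AGGTCA (nuclear receptor half-site) and CAAAGTCCA (an HNF4 site). The sterol letters were added after the *Cyp51* promoter had been read.
Cyp2a4 (chr7:26306942-26307191, plus strand): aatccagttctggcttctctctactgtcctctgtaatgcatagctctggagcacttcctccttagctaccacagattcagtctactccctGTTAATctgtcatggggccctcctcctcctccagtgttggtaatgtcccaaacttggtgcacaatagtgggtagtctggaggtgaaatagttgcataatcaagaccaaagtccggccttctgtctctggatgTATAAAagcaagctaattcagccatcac
Cyp2a5 (chr7:26835089-26835338, plus strand): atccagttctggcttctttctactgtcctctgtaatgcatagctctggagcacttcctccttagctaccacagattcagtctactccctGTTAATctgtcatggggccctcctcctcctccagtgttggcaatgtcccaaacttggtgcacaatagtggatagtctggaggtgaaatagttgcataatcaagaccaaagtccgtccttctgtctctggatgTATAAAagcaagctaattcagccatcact
Cyp51 (chr5:4104698-4104947, minus strand): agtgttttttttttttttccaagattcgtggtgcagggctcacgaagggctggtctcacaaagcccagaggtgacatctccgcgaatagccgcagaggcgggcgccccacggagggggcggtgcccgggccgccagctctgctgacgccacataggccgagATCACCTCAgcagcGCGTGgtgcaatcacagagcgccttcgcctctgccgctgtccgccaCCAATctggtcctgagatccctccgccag
Cyp1a1 (chr9:57697363-57697612, plus strand): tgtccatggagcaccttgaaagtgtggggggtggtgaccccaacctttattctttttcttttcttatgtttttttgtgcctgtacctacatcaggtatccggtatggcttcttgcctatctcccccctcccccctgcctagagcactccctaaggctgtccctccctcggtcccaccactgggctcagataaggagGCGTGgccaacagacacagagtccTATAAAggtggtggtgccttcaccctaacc
Within these 250 bases *Cyp2a4* and *Cyp2a5* were 98.4% identical over 249 aligned positions, and both held TATAAA near the start and GTTAAT further up. TATAAA was in 18 of the 53 members (34.0%), against 12.4% of 32851 promoters of equal length, and GTTAAT in 8 (15.1%), against 6.43%. Members were counted once per gene, with a match in any entry, and the wider set once per promoter entry. The shares here are therefore not equal measures. The HNF4 letters were in 6 members (11.3%), against 0.384% of all promoters, and 4 of these were the *Cyp2c* copies *Cyp2c40*, *Cyp2c67*, *Cyp2c68* and *Cyp2c69*, which share sequence and are not independent. The sterol letters were in *Cyp51* alone among members and in 0.18% of all promoters. GCGTG was in 14 members (26.4%), against 28.2%, AGGTCA in 8 (15.1%), against 14.0%, and CCAAT in 24 (45.3%), against 33.8%. These matches are descriptions of the letters and not of binding.

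The P450 genes together took 0.292 to 0.813% of the counts outside mitochondrial genes in young, 0.301 to 0.679% in saline and 0.373 to 0.796% in MCC950 libraries. Per kilobase of exon, the mean level over all libraries was highest for *Cyp4b1*, which oxidises fatty acids and foreign compounds, at 214.1 CPM per kb. *Cyp2e1*, which oxidises ethanol and acetone, followed at 124.8 CPM per kb, and *Cyp2j5*, a kidney epoxygenase of arachidonic acid, at 81.0 CPM per kb. The next were *Cyp2a4* (34.7 CPM per kb), *Cyp2a5* (26.4 CPM per kb), *Cyp27a1*, the sterol hydroxylase of mitochondria (25.8 CPM per kb), *Cyp4a10* (23.7 CPM per kb) and *Cyp2d12* (23.2 CPM per kb). Compared within each library, *Cyp4b1* was above *Cyp2e1* in 20 of 21 libraries, *Cyp2e1* above *Cyp2j5* and *Cyp2j5* above *Cyp2a4* in all 21, and *Cyp2a4* above *Cyp2a5* in 19. Below these the order was less steady, with *Cyp2a5* above *Cyp27a1* in 8 libraries, *Cyp27a1* above *Cyp4a10* in 16 and *Cyp4a10* above *Cyp2d12* in 13. *Cyp4b1* alone made up a median of 32.5% of the summed P450 CPM in young, 26.9% in saline and 24.8% in MCC950 libraries.

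**Figure D1:**
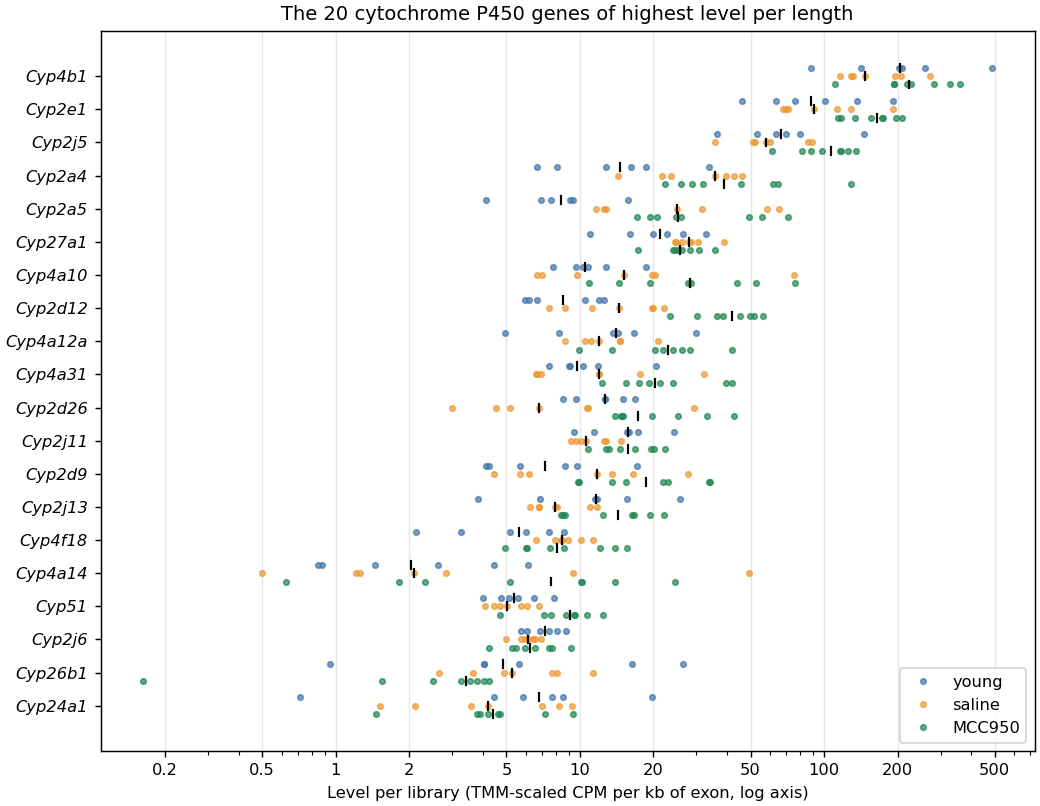
Levels of the 20 P450 genes of highest mean level per length, in TMM-scaled CPM per kb of exon on a log axis. Each point is 1 library, colours mark the young, saline and MCC950 groups, and black ticks are group medians. *Cyp4b1* leads with a mean of 214.1 CPM per kb over all libraries, and the libraries of a group spread widely for *Cyp4a14* and *Cyp26b1*.

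The first comparison, saline against young, asks how P450 mRNA in the fraction differed between 19.5-month and 4-month mice. Of the 54 genes tested, 5 rose (9.26%) and 2 fell (3.7%), called when edgeR's quasi-likelihood test gave an adjusted p under 0.05, against 12.2% and 12.4% of all 16377 genes tested. The shares of members were below those of all genes in both directions. The median log2 fold change was 0.02 over the members and 0.02 over all genes. Without saline 5 these medians were -0.03 and 0.01. In 1 of the 54 (1.85%), *Cyp4f16*, the 2 groups did not overlap, against 9.37% of all genes.

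*Cyp2a5*, the coumarin hydroxylase, had the largest change with age among those that passed. It was at 8.53 CPM in the lowest young library, 17.3 CPM at the median and 32.5 CPM in the highest, and at 24.2, 51.6 and 135 CPM in saline libraries. Young 1 reached above the 3 lowest saline libraries, and the other 5 young libraries lay below all saline ones. The log2 fold change was 1.82 ± 0.46 (SE; adjusted p = 0.00644, and 0.000259 to 0.0162 over the alternatives). Its copy *Cyp2a4*, a steroid hydroxylase, went from a median of 25.2 CPM (11.6 to 58.6) to 62.3 CPM (24.8 to 79.9), with overlapping groups and a change of 0.99 ± 0.41 on the log2 scale (adjusted p = 0.0849). It passed without young 1 or without MCC950 1 (adjusted p = 0.0238 to 0.0487). *Cyp2a5* made up a median of 39.5% of the pair's CPM in young, 45.3% in saline and 48.7% in MCC950 libraries, and these shares overlapped between groups.

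Among the genes of family 4, 3 of 15 rose with age and none fell, beside 12.2% of all genes higher and 12.4% lower. *Cyp4f16*, a fatty acid hydroxylase, was at 6.70 to 12 CPM in young (median 9.35) and 12.4 to 18.4 CPM in saline libraries (median 13.8). The groups did not overlap, by a narrow gap, and the log2 fold change was 0.64 ± 0.15 (adjusted p = 0.0048). Its copy *Cyp4f37* was 96.1% identical in coding sequence and at most 0.585 CPM in young and 0.503 CPM in saline libraries. *Cyp4f13* rose by 0.41 ± 0.12 (adjusted p = 0.0163), with medians of 8.10 and 10.8 CPM and overlapping groups. *Cyp4v3*, a fatty acid hydroxylase known for a retinal dystrophy in people who lack the human gene, rose by 0.62 ± 0.19 (adjusted p = 0.0213). Its saline libraries were at 14.0 to 20 CPM and its young ones at 6.22 to 16.4 CPM. The call was lost without young 1, young 3 or saline 2 (adjusted p = 0.0509 to 0.0618).

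*Cyp2c23*, a kidney epoxygenase of arachidonic acid, went from 2.30 to 7.34 CPM in young (median 2.93) to 3.35 to 10.6 CPM in saline libraries (median 8.82). Young 1, at 7.34 CPM, stood apart from the other young libraries, and the groups overlapped. The log2 fold change was 1.00 ± 0.33 (adjusted p = 0.03), and the call was lost when any 1 of 8 libraries was left out: young 2, 3, 4 or 6 or saline 1, 2, 5 or 6 (adjusted p = 0.0509 to 0.072).

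The 2 genes that fell with age were of low level or small change. *Cyp1a1*, the classic target of the aryl hydrocarbon receptor, was at 0.398 to 1.68 CPM in young (median 0.754) and 0.265 to 0.754 CPM in saline libraries (median 0.406). The groups overlapped, and the gene fell by 0.98 ± 0.36 on the log2 scale (adjusted p = 0.048). *Cyp2s1*, an epithelial P450, was at 12.6 to 16.9 CPM in young and 10.5 to 13.8 CPM in saline libraries and fell by 0.31 ± 0.11 (adjusted p = 0.0464). Both calls are near the threshold, and both were lost without the filter on low counts and with a replicate block. The *Cyp1a1* call was lost without young 2, 3 or 4, saline 1, 2, 3, 4, 6 or 7, or MCC950 2, 3, 6 or 7 (adjusted p = 0.0501 to 0.197). The *Cyp2s1* call was lost without young 1, 3 or 5, saline 2, 3 or 7, or MCC950 1, 2, 4 or 8 (adjusted p = 0.0506 to 0.0975).

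*Cyp2d12*, a member of the drug-oxidising CYP2D family, did not pass with age by edgeR (log2 fold change 0.72 ± 0.27, adjusted p = 0.0515). It passed by DESeq2 (0.70, adjusted p = 0.0265), with a covariate for proximal tubule markers, described below (0.80, adjusted p = 0.00147), and without young 1 or 5, saline 3, 4 or 7, or MCC950 7 (adjusted p = 0.0193 to 0.0475).

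The sterol, steroid, vitamin D and retinoid families were taken by symbol, as all families above 4, and include *Cyp20a1*, which has no known substrate. None of 13 genes tested there passed with age by edgeR. By edgeR 3 had an unadjusted p under 0.05, and DESeq2 called *Cyp26a1* and *Cyp27b1* higher. *Cyp27b1*, which makes the active form of vitamin D, had the largest log2 fold change of all members, 2.21 ± 0.82 (adjusted p = 0.0544). It was at 0.549 to 1.49 CPM in young libraries (median 1.13). In saline libraries it was at 1.89, 0.824, 0.943, 1.01, 25.3, 2.21 and 1.02 CPM from saline 1 to saline 7. The difference between groups was carried by saline 5, and without it the log2 fold change was 0.34 (adjusted p = 0.654). Without saline 1, 2, 3, 4 or 7 it passed (adjusted p = 0.0398 to 0.0486). *Cyp24a1*, which breaks active vitamin D down, was at medians of 24.1 CPM in young and 14.9 CPM in saline libraries (log2 fold change -0.62 ± 0.51, adjusted p = 0.41). *Cyp27a1* was at medians of 46.3 and 60.5 CPM (0.42 ± 0.19, adjusted p = 0.118) and passed without young 4 (adjusted p = 0.0327). By edgeR *Cyp26a1* passed without young 6 or saline 5 (adjusted p = 0.0174 to 0.0378).

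**Figure D2:**
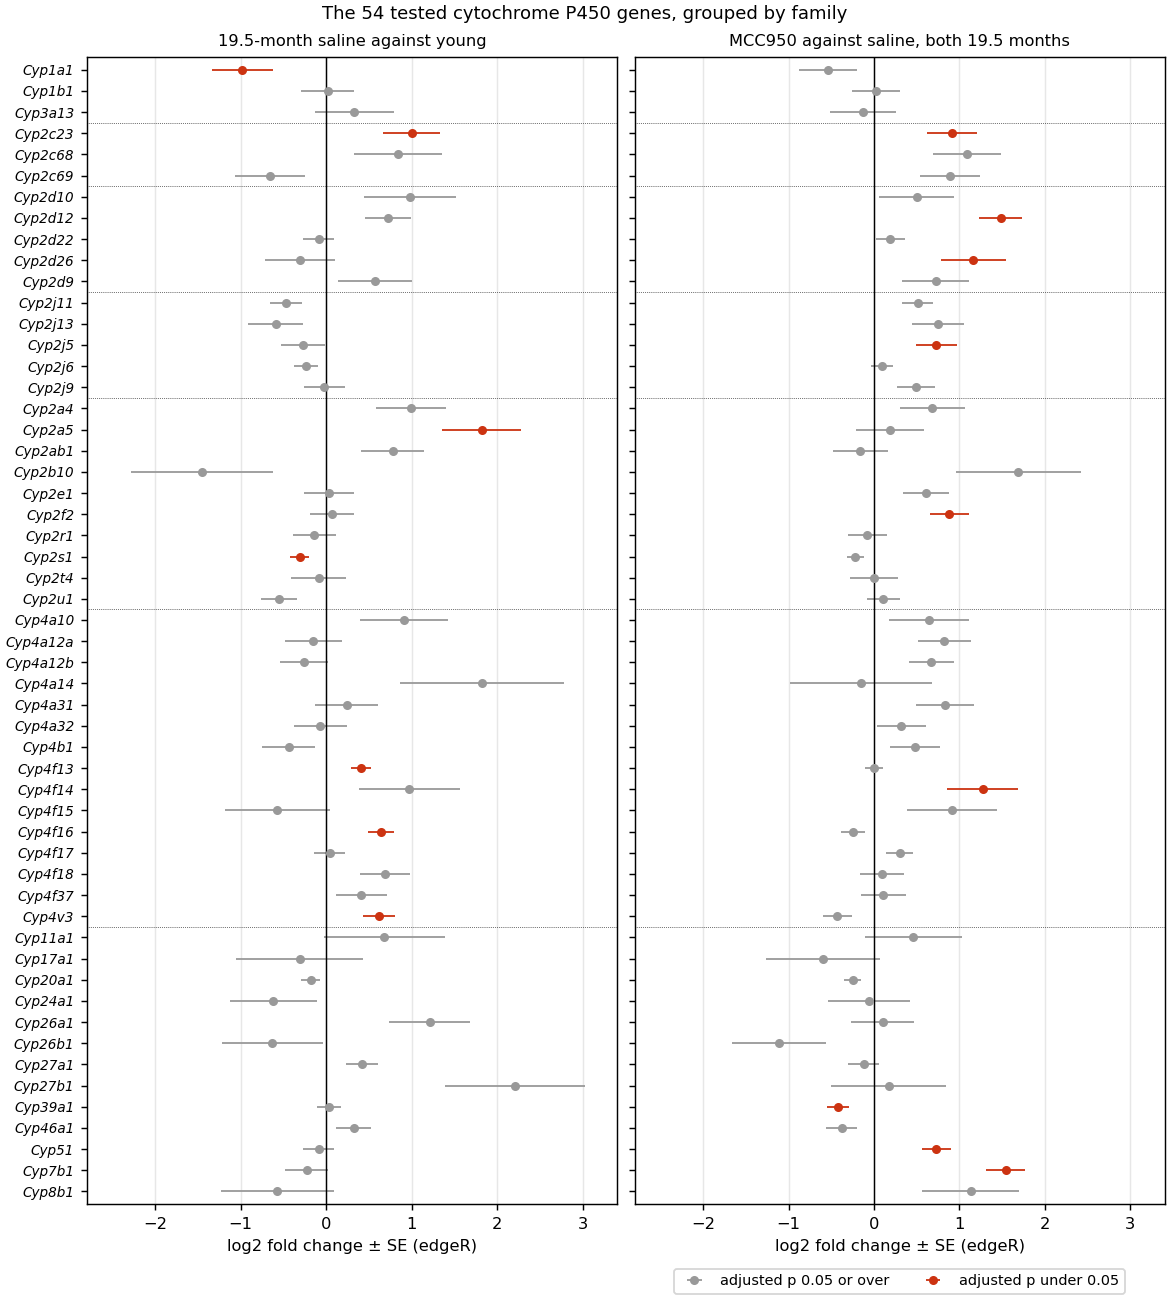
Log2 fold changes of the 54 tested P450 genes with standard errors from edgeR, for saline against young (left) and MCC950 against saline (right), grouped by family between dotted lines. Red points passed an adjusted p of 0.05. With age 5 genes were higher and 2 lower. With MCC950 8 were higher and 1 lower, and the points of *Cyp2c*, *Cyp2d* and *Cyp2j* all lie to the right of zero.

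The second comparison, MCC950 against saline at 19.5 months, asks how P450 mRNA in the fraction differed between these groups. Of the 54 genes tested, 8 were higher (14.8%) and 1 lower (1.85%), against 11.9% and 4.86% of all 16377 genes. The share called higher was thus close to that of all genes. The median log2 fold change was 0.31 over the members and 0.0 over all genes, and 38 of 54 were positive. Without saline 5 the member median was 0.56, with 40 of 53 positive, and that of all genes 0.01. In the fit with all libraries, 19 of 23 were positive in family 2, with a median of 0.61, and 12 of 15 in family 4, with a median of 0.32. In the sterol, steroid, vitamin D and retinoid families 6 of 13 were positive in that fit, with a median of -0.06. The groups did not overlap in 1 member, *Cyp2d12* (1.85%), against 1.74% of all genes. The proximal tubule markers moved the same way: 14 of 14 had a positive log2 fold change with MCC950, with a median of 0.82, and 7 of 14 passed.

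*Cyp2d12* was at 77.1, 56.0, 43.6, 29.0, 85.5, 76.3 and 33.6 CPM in saline 1 to 7. In MCC950 1 to 8 it was at 175, 150, 217, 192, 200, 117, 90.5 and 141 CPM. Every MCC950 library lay above every saline library, the closest being MCC950 7 and saline 5, and above every young library (23.0 to 48.5 CPM). The log2 fold change was 1.48 ± 0.25 (adjusted p = 0.00136, and 2.8e-07 to 0.0178 over the alternatives). Its share of all *Cyp2d* CPM was 31.0 to 46.7% in young, 36.6 to 57.9% in saline and 43.2 to 72.6% in MCC950 libraries. Of the other *Cyp2d* genes, *Cyp2d26* rose by 1.16 ± 0.38 (adjusted p = 0.0418). It was at 5.34 to 19.4 CPM in 6 saline libraries, at 52.4 CPM in saline 5, and at 24.9 to 76.8 CPM in MCC950 libraries. Without saline 5 the log2 fold change was 1.71 (adjusted p = 0.00293), and the call was lost without any other saline library or without MCC950 1, 4, 5 or 6 (adjusted p = 0.0549 to 0.0895). *Cyp2d22*, *Cyp2d9* and *Cyp2d10* did not pass, with log2 fold changes of 0.19, 0.72 and 0.50, or 0.35, 1.06 and 1.03 without saline 5 (adjusted p = 0.106, 0.0632 and 0.093).

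*Cyp7b1*, which hydroxylates oxysterols and steroids on the way to bile acids, had the largest log2 fold change among the members called with MCC950. It was at 2.55, 1.59, 1.91, 2.13, 3.13, 2.54 and 2.59 CPM in saline 1 to 7. In MCC950 1 to 8 it was at 11.3, 6.92, 7.06, 6.64, 9.29, 2.95, 4.60 and 6.12 CPM. The groups overlapped only through MCC950 6, which lay below saline 5. *Cyp7b1* rose by 1.54 ± 0.23 on the log2 scale (adjusted p = 0.000721, and 1.23e-08 to 0.0177 over the alternatives).

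*Cyp51*, the lanosterol demethylase of cholesterol synthesis, was at 18.0 to 29.9 CPM in saline (median 22.1) and 20.7 to 54.7 CPM in MCC950 libraries (median 40.1). MCC950 6 lay within the saline range, and the other 7 lay above all saline libraries. *Cyp51* rose by 0.73 ± 0.17 on the log2 scale (adjusted p = 0.00865, and 0.001 to 0.0454 over the alternatives). *Cyp39a1*, another oxysterol hydroxylase, was the only member called lower. It was at 3.97 to 5.90 CPM in saline and 2.70 to 4.93 CPM in MCC950 libraries and fell by 0.42 ± 0.13 (adjusted p = 0.0346). The call was lost without saline 4 or 5 or MCC950 1, 7 or 8 (adjusted p = 0.0509 to 0.0657).

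Of the *Cyp2j* genes 1 of 5 passed, *Cyp2j5*, which was at 84.1 to 209 CPM in saline (median 136) and 143 to 316 CPM in MCC950 libraries (median 250), and the groups overlapped. The log2 fold change was 0.73 ± 0.24 (adjusted p = 0.0419). The call was lost when any 1 of 13 libraries was left out, which were young 2, 3 and 5, saline 2, 3, 4, 6 and 7, and MCC950 1, 2, 3, 5 and 8 (adjusted p = 0.0536 to 0.107). All 5 tested *Cyp2j* genes had positive values, from 0.09 to 0.75. *Cyp2c23* was at 7.71 to 21.8 CPM in MCC950 libraries (median 12.4) and rose by 0.91 ± 0.29 (adjusted p = 0.0373). Its call was lost without saline 3, 4 or 7 or MCC950 1, 2 or 5 (adjusted p = 0.0532 to 0.0891). *Cyp2f2*, a P450 of lung club cells, rose by 0.88 ± 0.23 (adjusted p = 0.0158), from a median of 2.14 to one of 3.80 CPM, and passed with each library left out.

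Both genes of highest level per length, *Cyp4b1* and *Cyp2e1*, did not pass with MCC950. *Cyp4b1* was at 262 to 612 CPM in saline (median 332) and 250 to 811 CPM in MCC950 libraries (median 502), which is 0.48 ± 0.29 on the log2 scale (adjusted p = 0.267). *Cyp2e1* was at medians of 196 and 354 CPM (0.61 ± 0.27, adjusted p = 0.126) and passed without saline 5 (adjusted p = 0.0365). *Cyp4a12a*, the androgen-driven fatty acid hydroxylase of the male mouse kidney, was at medians of 29.0 and 55.8 CPM (0.82 ± 0.31, adjusted p = 0.0732). It passed without young 1 or MCC950 6 or 7 (adjusted p = 0.0322 to 0.0477). In family 4 the gene called higher was *Cyp4f14*, a leukotriene hydroxylase, which is named after its values were seen. It stayed at or below 0.571 CPM in every library (log2 fold change 1.27 ± 0.42, adjusted p = 0.0396), and its call was lost without young 2, saline 2 to 7 or MCC950 1 to 5 (adjusted p = 0.0508 to 0.0818).

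*Cyp4a10* and *Cyp4a14*, fatty acid hydroxylases known as targets of the lipid sensor PPARalpha, varied widely within groups. *Cyp4a14* was at 5.46, 7.36, 3.14, 1.30, 128, 24.4 and 3.26 CPM in saline 1 to 7, and at 13.5, 4.73, 1.63, 26.2, 63.5, 36.2, 26.4 and 6.05 CPM in MCC950 1 to 8. The log2 fold change was -0.15 ± 0.83 (adjusted p = 0.921) and became 1.57 without saline 5 (adjusted p = 0.146). *Cyp4a10* was at 14.1 to 43.0 CPM in 6 saline libraries, at 158 CPM in saline 5 and at 22.9 to 161 CPM in MCC950 libraries. Its log2 fold change was 0.64 ± 0.47 (adjusted p = 0.371) and became 1.38 without saline 5 (adjusted p = 0.0221). *Cyp27b1* gave 0.17 ± 0.67 (adjusted p = 0.885) and 2.03 without saline 5 (adjusted p = 0.00669). It was at 1.80 to 13 CPM in MCC950 libraries (median 3.84). MCC950 5 was the highest MCC950 library for all 3 genes, as saline 5 was among saline libraries. Leaving out saline 5 raised the count of members called higher with MCC950 from 8 to 13 of 53 tested, 7 of them shared, with 11.7% of all genes called higher in that fit. *Cyp27b1*, *Cyp4a10*, *Cyp2e1*, *Cyp2c68*, *Cyp4a12b* and *Cyp4a31* were added and *Cyp4f14* was lost.

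**Figure D3:**
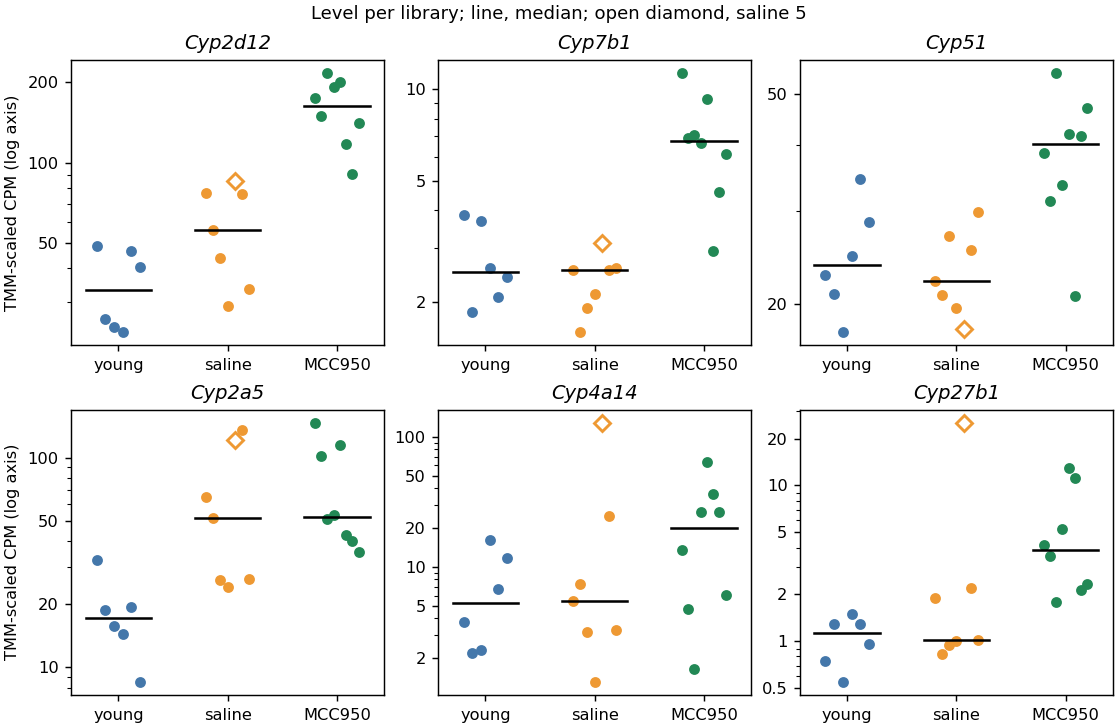
Levels of 6 P450 genes in every library, in TMM-scaled CPM on a log axis, with a line at each group's median and an open diamond for saline 5. *Cyp2d12* separates all 8 MCC950 libraries from the other groups, *Cyp7b1* separates all but MCC950 6, the *Cyp2a5* median is 17.3 CPM in young and 51.6 and 52.5 CPM in saline and MCC950 libraries, and saline 5 is at 128 CPM for *Cyp4a14* and 25.3 CPM for *Cyp27b1*.

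Since proximal tubule markers and P450 genes moved together with MCC950, the fit was repeated with the mean log2 level of the 14 tubule markers as a covariate. The count of members called higher fell from 8 to 3, and the 3 were *Cyp2d12* (log2 fold change 0.84, adjusted p = 0.0178), *Cyp7b1* (1.09, adjusted p = 0.0177) and *Cyp51* (0.77, adjusted p = 0.0454). In that fit 2.68% of all genes were called higher. The median log2 fold change of the 54 members went from 0.31 to -0.04, and 22 instead of 38 were positive. *Cyp2j5* came to -0.06 (adjusted p = 0.621), *Cyp2c23* to 0.02 (adjusted p = 0.95), *Cyp2f2* to 0.21 (adjusted p = 0.508), *Cyp4f14* to 0.23 (adjusted p = 0.813) and *Cyp2d26* to 0.70 (adjusted p = 0.284). *Cyp4b1* turned from 0.48 to -0.49 (adjusted p = 0.0455), *Cyp2s1* came to -0.43 (adjusted p = 0.0359), and *Cyp39a1* to -0.65 (adjusted p = 0.0206). With age, where none of the 14 tubule markers passed, the same covariate raised the count called higher from 5 to 12 (16.5% of all genes in that fit, against 12.2% without the covariate), all 5 first called among them, with *Cyp2a4*, *Cyp2d9*, *Cyp2d10*, *Cyp2d12*, *Cyp26a1*, *Cyp27a1* and *Cyp4f18* added.

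**Figure D4:**
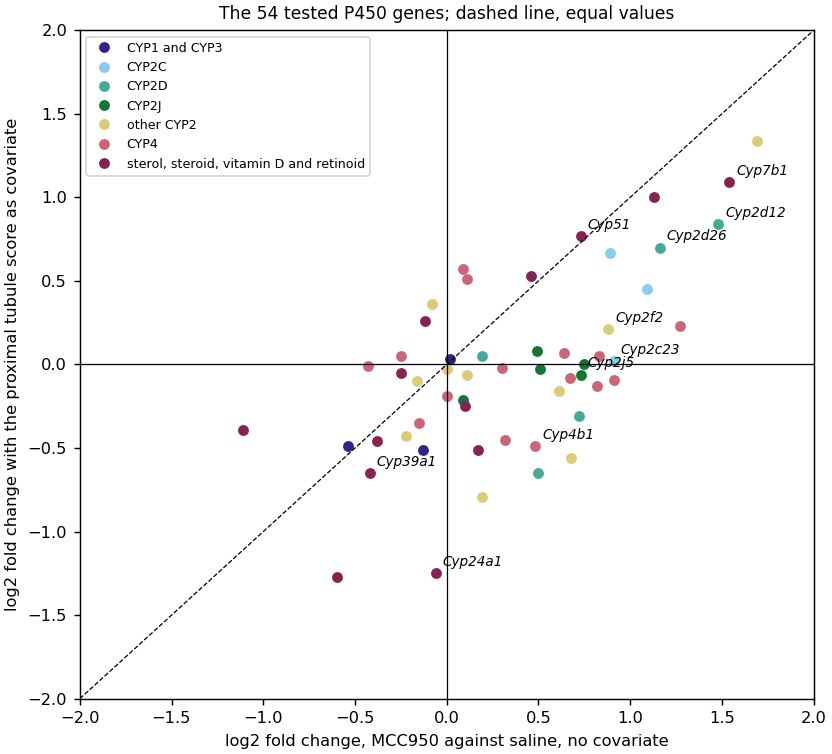
Log2 fold changes of the 54 tested P450 genes with MCC950 against saline, without a covariate (horizontal) and with the tubule marker score added to the fit (vertical), coloured by family. The dashed line marks equal values. *Cyp51* lies on the line, at 0.73 and 0.77, *Cyp2d12* and *Cyp7b1* keep positive values, and 22 of the 54 genes are positive with the covariate, against 38 without it.

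The third comparison, MCC950 against young, shares its libraries with the other 2, so its values stand beside theirs and are not a separate test of them. Here 18 of 54 were higher (33.3%) and 5 lower (9.26%), against 21.8% and 16.5% of all genes. The groups did not overlap in 5 members (9.26%), against 7.94% of all genes. These were *Cyp2a5*, *Cyp2c23*, *Cyp2d12* and *Cyp27b1*, which were higher in all MCC950 libraries, and *Cyp2s1*, which was lower. The median log2 fold change was 0.41 over the members and 0.08 over all genes.

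*Cyp2d12* was higher by 2.21 ± 0.27 (adjusted p = 7.48e-06), *Cyp2c23* by 1.91 ± 0.33 (adjusted p = 0.000173) and *Cyp2a5* by 2.01 ± 0.45 (adjusted p = 0.00181). *Cyp2c23* had medians of 2.93, 8.82 and 12.4 CPM in young, saline and MCC950 libraries, with calls in each of the 3 comparisons. *Cyp2a5* had medians of 17.3, 51.6 and 52.5 CPM, and MCC950 against saline gave 0.19 ± 0.40 (adjusted p = 0.785). *Cyp2a4* passed here, at 1.67 ± 0.41 (adjusted p = 0.00368), with 38.7 to 223 CPM in MCC950 libraries. *Cyp27b1* was higher by 2.38 ± 0.82 (adjusted p = 0.0258), and the call was lost without young 3 or MCC950 5 (adjusted p = 0.0523 to 0.0591). *Cyp7b1* (1.31 ± 0.25, adjusted p = 0.000383) and *Cyp51* (0.64 ± 0.18, adjusted p = 0.00795) were higher as well. For both, young and saline libraries had like levels, with log2 fold changes with age of -0.23 ± 0.25 and -0.09 ± 0.18 that did not pass. *Cyp4a10* was higher by 1.55 ± 0.51 (adjusted p = 0.0216; lost without young 2 or MCC950 5, adjusted p = 0.0504 to 0.0534). *Cyp4f16* was higher by 0.39 ± 0.15 (adjusted p = 0.0471), a call lost in 15 of the 21 fits that left out 1 library (adjusted p = 0.0515 to 0.152). *Cyp2d9*, known as a male-specific steroid hydroxylase of mouse liver, was higher by 1.28 ± 0.42 (adjusted p = 0.0216). Its call was lost without young 3, 4 or 6 (adjusted p = 0.0538 to 0.0594). *Cyp2d26* did not pass (0.84 ± 0.40, adjusted p = 0.101) but did without saline 5 (adjusted p = 0.0338).

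Of the 5 lower members, *Cyp26b1*, which breaks down retinoic acid, changed most. It was at 5.05, 21.6, 87.8, 142, 21.7 and 30.1 CPM in young 1 to 6, at 14.2 to 60.8 CPM in saline and at 0.869 to 22.6 CPM in MCC950 libraries. Young 3 and young 4 were far above the other young libraries. The gene differed by -1.73 ± 0.58 on the log2 scale (adjusted p = 0.0221), and without young 3 or young 4 it did not pass (adjusted p = 0.058 to 0.113). *Cyp1a1* was lower by -1.52 ± 0.35 (adjusted p = 0.00224), at 0.145 to 0.663 CPM in MCC950 libraries. *Cyp2s1* was at 7.48 to 12.3 CPM and did not overlap with young libraries (-0.53 ± 0.11, adjusted p = 0.000829). *Cyp20a1*, a P450 without a known substrate (-0.43 ± 0.11, adjusted p = 0.00349), and *Cyp39a1* (-0.39 ± 0.14, adjusted p = 0.032) completed the 5. With the tubule score as covariate, 13 members were higher and 8 lower than in young mice, 10 and 3 of them shared with the counts above, and 21.3% and 15.9% of all genes were called. The calls on *Cyp27b1*, *Cyp2d9*, *Cyp2f2*, *Cyp4a10*, *Cyp4f13*, *Cyp20a1* and *Cyp26b1* were among those lost. The *Cyp39a1* call was lost without young 1 or MCC950 6, 7 or 8 (adjusted p = 0.0543 to 0.0781).

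Several members of the fixed list did not pass in any comparison. *Cyp24a1*, *Cyp27a1*, *Cyp1b1*, *Cyp2d22*, *Cyp3a13*, *Cyp4a14* and *Cyp4f15* were among them. With the tubule score as covariate, *Cyp24a1* was lower than in young mice after MCC950 (-1.49, adjusted p = 0.00379, against -0.68 without it) and *Cyp27a1* higher (0.67, adjusted p = 0.00654, against 0.30), and *Cyp27a1* was also higher with age (0.41, adjusted p = 0.0448). *Cyp1b1*, an enzyme of oestrogen and foreign compound oxidation, was at medians of 2.71, 2.87 and 2.47 CPM in young, saline and MCC950 libraries, and *Cyp2d22* at 12.9, 12.3 and 14.2 CPM. *Cyp3a13* and *Cyp4f15* stayed below 1 CPM in every library, where the depth cannot show a small difference.

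Genes linked to the P450 enzymes were looked at as fixed lists. Of 8 redox partners tested, 1 was lower with age, *Pgrmc1* (-0.28 ± 0.10, adjusted p = 0.0469), and 4 were higher with MCC950. These were *Cyb5a* and *Cyb5b*, which hold cytochrome b5, at 0.65 ± 0.19 (adjusted p = 0.0244) and 0.46 ± 0.11 (adjusted p = 0.00859), and the mitochondrial ferredoxins *Fdx1* (0.60 ± 0.16, adjusted p = 0.0185) and *Fdx2* (0.32 ± 0.10, adjusted p = 0.0376). *Por*, the reductase of the endoplasmic reticulum, was at means of 50.1 ± 16.1 CPM (SD, n = 6) in young, 53.4 ± 9.65 CPM (SD, n = 7) in saline and 68.5 ± 14.7 CPM (SD, n = 8) in MCC950 libraries and did not pass against saline (0.36 ± 0.16, adjusted p = 0.137). Of 9 regulators tested, *Hnf4a* (1.06 ± 0.20, adjusted p = 0.003), *Rxra* (0.40 ± 0.09, adjusted p = 0.0082) and the xenobiotic receptor *Nr1i2* (1.03 ± 0.32, adjusted p = 0.0342) were higher with MCC950. Beside these 4 of 8 and 3 of 9, 11.9% of all genes were higher with MCC950, as were 7 of 14 proximal tubule markers. With the tubule score in the fit, none of the 8 redox partners passed with MCC950 by edgeR, with *Cyb5a* at 0.06 (adjusted p = 0.799) and *Fdx1* at 0.16 (adjusted p = 0.542), and of the regulators *Hnf4a* alone passed (0.47, adjusted p = 0.0115). The vitamin D receptor *Vdr* was lower with age (-0.43 ± 0.14, adjusted p = 0.0253). *Ahr*, the receptor whose classic target is *Cyp1a1*, was lower against young after MCC950 (-0.47 ± 0.15, adjusted p = 0.0168) and did not pass with age (-0.24 ± 0.15, adjusted p = 0.275). Both results changed with the tubule score in the edgeR fit. There *Ahr* did not pass against young (-0.19, adjusted p = 0.217) and was lower with age (-0.29, adjusted p = 0.0496), near the threshold. *Ppara* did not pass in any comparison. Of the linked enzymes, the epoxide hydrolase *Ephx2* was higher with MCC950 (0.98 ± 0.23, adjusted p = 0.00928) and *Ephx1* was lower (-0.45 ± 0.09, adjusted p = 0.00411). With the tubule score *Ephx2* and *Ephx1* came to 0.22 and -0.59 (adjusted p = 0.261 and 0.00416). Thromboxane synthase *Tbxas1*, itself a P450 that the symbol rule leaves out, was higher with age (0.79 ± 0.22, adjusted p = 0.011).

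Other cell types changed in the fraction as well. With age 14 of 15 podocyte markers were lower and 2 of 7 macrophage and 3 of 6 B and plasma cell markers were higher. Of the other lists, 6 of 7 endothelial, 5 of 7 mesangial and smooth muscle, 4 of 6 collecting duct and 2 of 6 loop and distal tubule markers were lower with age. The podocyte list summed to 978.5 to 2000.0 CPM in young and 430.5 to 705.5 CPM in saline libraries, the macrophage list to 381.2 to 1900.0 and 1406 to 3476 CPM, and the B and plasma cell list to 39.1 to 173 and 398.2 to 573.8 CPM. The part of these cells in the age differences of *Cyp2a5*, *Cyp4f13*, *Cyp4f16* and *Cyp4v3* was not tested. With MCC950 5 of 15 podocyte markers were higher, and none of the macrophage, B and plasma cell, collecting duct or mesangial and smooth muscle markers passed. Of 6 loop and distal tubule markers 2 were lower, *Umod* (-0.56, adjusted p = 0.0156) and *Slc12a1* (-0.88, adjusted p = 0.0321). The other 4 had positive values that did not pass. Of 7 endothelial markers 1 was lower, *Plvap* (-0.68, adjusted p = 0.0139), and 2 had positive values that did not pass. At low level 2 of 5 tested hepatocyte markers were higher with MCC950, *Alb* (1.78 ± 0.28, adjusted p = 0.00104) and *Ttr* (1.30 ± 0.32, adjusted p = 0.0107). Their means were 1.94 and 10.5 CPM in MCC950 libraries. Of the 5, 4 had positive values and *Hpx* was at -0.18, while *Ahsg* had no count in any library.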

How the data were processed

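Podocyte fractions of 21 mice (6 young, 7 saline, 8 MCC950) were sequenced, 1 library per mouse. Per the study's methods, the authors trimmed reads with Trim Galore, aligned them with Bowtie2, which does not split reads at splice junctions and so can lose junction reads, and counted them per gene with featureCounts. The genome was mm10. Versions, strand setting and the handling of reads with several matches were not given in the sources used here. The deposited values used are raw counts per gene, 1 table per library. A normalized table was not used.

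Entrez numbers were paired with symbols through RefSeq (25275 genes) and GENCODE (18), and 1886 of 27179 stayed unnamed. Counts were fitted with edgeR 4.0.16 (R 4.3.3), with TMM scaling, the filterByExpr filter and 1 mean per group. The quasi-likelihood F test with Benjamini-Hochberg adjustment over 16377 genes gave adjusted p, called under 0.05. Standard errors are the log2 fold change divided by the root of F. P-values measure the spread between mice. The code was tested on simulated data. Alternatives were DESeq2 1.42.0, relative log expression (RLE) scaling, no filter, mitochondrial genes left out, a replicate block, a proximal tubule score as covariate, and each library left out.

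Named members are, per comparison and direction, the 8 of largest change among those called with a mean of at least 1 CPM, the 8 of highest level per length, and a fixed list. Members and lists were chosen with earlier results of these data known. Coding identity used GENCODE and Biopython 1.88, and 69 of 70 members had a coding sequence. Tables and plots used pandas 2.3.3, numpy 2.4.6 and matplotlib 3.10.9.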

Additional observations from a re-analysis of the deposited data

Results flagged for a closer look

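In 90 groups of libraries (30 named genes in 3 groups), the highest or lowest library was compared with its neighbour by Dixon's ratio at the 95% level, and 10 stood apart. Chance gives about 1 in 20 for independent groups of normally distributed values. The 90 groups share libraries and the ratio was taken on CPM, so the 10 were not tested against this rate. Of these, 4 were in saline 5. *Cyp4a14* was at 128 CPM there and at 24.4 CPM in the next saline library, *Cyp4a10* at 158 and 43.0 CPM, *Cyp2d26* at 52.4 and 19.4 CPM, and *Cyp27b1* at 25.3 and 2.21 CPM. A further 2 were in young 1, where *Cyp2c23* was at 7.34 CPM against 3.76 CPM in the next young library and *Cyp2f2* at 3.29 against 1.76 CPM. *Cyp2d22* was at 17.2 CPM in young 4 and 13.8 CPM in the next. *Cyp27a1* was at 84.6 CPM in saline 2 and 66.3 CPM in the next. In the MCC950 group, *Cyp2a4* was at 223 CPM in MCC950 1 and 112 CPM in the next, and *Cyp1b1* at 7.85 CPM in MCC950 2 and 3.86 CPM in the next.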

How the results depend on the processing

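Of 32 calls on named genes over the 3 comparisons, 14 held under every alternative, 17 under the 6 alternatives of method and 18 with each of the 21 libraries left out in turn. Of 58 named results that were not called, 22 were called under some alternative. Among the calls, the sign turned for *Cyp2j5* with MCC950, to -0.06 with the proximal tubule covariate (adjusted p = 0.621), and this covariate also turned *Cyp4b1*, which was not called, to -0.49 with MCC950 (adjusted p = 0.0455) and to -0.63 against young (adjusted p = 0.000979). With the covariate, 12 members were higher and 3 lower with age, 3 higher and 3 lower with MCC950, and 13 higher and 8 lower in MCC950 against young. Of all genes, that fit called 16.5% higher and 14.2% lower with age, 2.68% and 1.98% with MCC950, and 21.3% and 15.9% against young. With a replicate block, 9 were higher and 1 lower with age, 16 higher and 1 lower with MCC950, and 22 higher and 3 lower against young. The block fit called 13.5% of all genes higher and 11.5% lower with age, 14.5% and 5.52% with MCC950, and 23.6% and 15.3% against young. DESeq2 called 8 higher and 4 lower with age and 12 higher with MCC950, beside 12.9%, 15.3% and 13.4% of all genes. RLE scaling called 3 lower with age (13.9% of all genes), and without a filter 0 were lower (9.17% of all genes). The cause was not tested. Leaving out 1 library gave 3 to 7 higher and 0 to 4 lower with age, 4 to 13 higher and 0 to 2 lower with MCC950, and 11 to 19 higher and 4 to 6 lower against young. Of all genes, these fits called 8.19 to 13.7% higher and 9.92 to 14.5% lower with age. With MCC950 they called 6.18 to 14.7% higher and 3.16 to 6.17% lower, and against young 15.5 to 22.6% higher. The fit with all libraries called 16.5% of all genes lower against young.

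The labels share replicate numbers between groups without saying that a number marks a pair. The deviations of same-numbered libraries correlated at -0.0614 to 0.347 with age, -0.144 to 0.335 with MCC950 and -0.0128 to 0.401 against young. In each comparison most libraries did not correlate best with their own number, so the replicate block was not used as a paired design. Depth limits the members below 1 CPM, where a change must be large to pass, and the 16 untested members.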

Other observations

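A few members outside the naming rule, chosen here after their values were seen, were higher in MCC950 than in young libraries. *Cyp4a31*, a close copy of *Cyp4a10*, was at medians of 24.3, 29.9 and 50.8 CPM in young, saline and MCC950 libraries (log2 fold change against young 1.07 ± 0.36, adjusted p = 0.0248 by edgeR), and the call was lost without young 2, 3, 4 or 6 or MCC950 1 or 5 (adjusted p = 0.0515 to 0.0602). *Cyp4f18*, a leukotriene hydroxylase known from myeloid cells, was at medians of 10.4, 15.7 and 15.0 CPM (0.78 ± 0.28, adjusted p = 0.0347), lost without young 1, 2, 3 or 5 or MCC950 6, 7 or 8 (adjusted p = 0.0557 to 0.0964). Below 1 CPM at every group median, *Cyp2c68* (1.94 ± 0.49, adjusted p = 0.00414), *Cyp2d10* (1.48 ± 0.53, adjusted p = 0.0309) and *Cyp26a1* (1.31 ± 0.46, adjusted p = 0.0286) were called too. The *Cyp2d10* call was lost without any of young 2 to 6 or MCC950 1 or 5 (adjusted p = 0.0546 to 0.0779), and the *Cyp26a1* call without any of young 2 to 5 or MCC950 2 or 3 (adjusted p = 0.0529 to 0.0769).

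The enzymes that start steroid synthesis were near the floor of detection. *Cyp11a1*, which cleaves the cholesterol side chain, was at most 1.23 CPM and *Cyp17a1* at most 0.530 CPM in any library. *Cyp46a1*, which hydroxylates cholesterol in neurons, was at medians of 1.00, 1.27 and 0.868 CPM in young, saline and MCC950 libraries and did not pass in any comparison.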
